A study of Mus musculus with 8 samples.

Results

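The genes of RNA polymerase I were examined as a list of 10: the subunit genes Twistnb, Polr1a, Polr1b, Polr1c, Polr1d, Polr1e, Cd3eap and Znrd1, and the genes of the initiation factors Ubtf and Rrn3. They are 10 of the 20807 protein-coding genes with a start on an autosome (GENCODE vM21, build GRCm38). Each gene was followed through the 50 kb bin of the contact matrix that holds its start, and these are 10 of 13301 such start bins. The rule lists the members by their role and uses no measured value, but it was drawn up with earlier results of these data known. The 10 bins lie on 9 chromosomes, with Polr1c and Znrd1 both on chromosome 17. Twistnb, Ubtf and Rrn3 have their start bin to themselves. The other 7 share it with the starts of further genes, such as Zbtb5 beside Polr1e and Lnx2 beside Polr1d, and there a contact cannot be credited to the polymerase gene alone.

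RNA polymerase I works in the nucleolus and transcribes the repeated genes of the large ribosomal RNA precursor. Its catalytic cleft is formed by a pair of large subunits, it shares an assembly platform and several small subunits with other nuclear polymerases, and it carries a stalk, which Rrn3 contacts when the enzyme is recruited, and a heterodimer that assists initiation and elongation. Ubtf binds the active ribosomal DNA, and B cells that prepare to divide after stimulation grow and make ribosomes.

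In situ Hi-C counts pairs of DNA ends that were ligated in fixed nuclei after cutting with MboI. It reads which stretches of the genome lie near each other and carries no transcript counts, so the labelled cell type could not be checked against marker RNA. The 8 libraries came from mouse splenic B cells that were labelled as naive cells with the division dye CTV, stimulated with 25 μg/ml LPS and sorted as activated, undivided cells, with 2 biological replicates in each of 4 groups. All animals were male, 6 to 12 weeks old and on a C57BL/6 Pep3b background, per the methods (C57BL/6 in the labels). The first group was taken at 3 h, the second at 10 h and the third at 33 h, when division was imminent. The fourth, also at 33 h, is the pre-S group: its cells came from C57BL/6 mice carrying the FUCCI cell cycle reporter and were sorted as mAG- mKO2hi, before DNA synthesis. The reporter and gate of the pre-S group cannot be told apart from its stage. The libraries held 88703088 to 218945191 read pairs, and 70.9 to 75.1% of the pairs between autosomal bins joined bins of the same chromosome. A contact count is a sum over many cells, so a contact made in fewer cells and a contact made less often per cell cannot be told apart.

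The promoter of Twistnb is shown because its locus is described at most length, that of Polr1e because its bin held most of the single contacts that changed, and those of Cd3eap and Rrn3 because they hold both motifs searched. Capitals mark the E-box CACGTG and the ETS core CCGGAAG, searched on both strands, so that the ETS core on the opposite strand reads CTTCCGG. Each RefSeq promoter (build GRCm38.p6) spans 250 bases before to 50 bases after the start.
Twistnb promoter, chr12:33429374-33429673, + strand: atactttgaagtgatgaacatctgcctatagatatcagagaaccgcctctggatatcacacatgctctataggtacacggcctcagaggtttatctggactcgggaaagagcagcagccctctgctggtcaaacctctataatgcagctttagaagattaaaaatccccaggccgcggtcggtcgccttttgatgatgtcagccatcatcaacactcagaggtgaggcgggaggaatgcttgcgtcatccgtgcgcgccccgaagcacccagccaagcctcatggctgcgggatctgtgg
Polr1e promoter, chr4:45018359-45018658, + strand: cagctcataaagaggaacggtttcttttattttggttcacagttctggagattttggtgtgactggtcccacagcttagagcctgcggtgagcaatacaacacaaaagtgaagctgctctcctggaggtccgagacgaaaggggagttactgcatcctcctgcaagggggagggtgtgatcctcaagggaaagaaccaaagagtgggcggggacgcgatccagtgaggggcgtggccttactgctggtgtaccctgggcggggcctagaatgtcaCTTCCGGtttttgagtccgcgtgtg
Cd3eap promoter, chr7:19359434-19359733, - strand: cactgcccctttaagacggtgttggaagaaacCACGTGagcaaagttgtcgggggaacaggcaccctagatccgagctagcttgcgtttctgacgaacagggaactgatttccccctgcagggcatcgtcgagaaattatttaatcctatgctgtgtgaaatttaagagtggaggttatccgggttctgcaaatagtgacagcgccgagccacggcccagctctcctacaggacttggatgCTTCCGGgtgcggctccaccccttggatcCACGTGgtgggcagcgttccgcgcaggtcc
Rrn3 promoter, chr16:13780449-13780748, + strand: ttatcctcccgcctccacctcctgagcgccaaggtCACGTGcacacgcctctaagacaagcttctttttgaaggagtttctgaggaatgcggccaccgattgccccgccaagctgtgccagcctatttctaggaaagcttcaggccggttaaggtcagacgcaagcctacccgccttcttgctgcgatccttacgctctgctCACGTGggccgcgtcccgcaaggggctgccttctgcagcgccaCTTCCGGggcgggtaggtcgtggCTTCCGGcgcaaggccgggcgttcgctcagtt
CACGTG stood in 7.15% and CCGGAAG in 8.858% of the 32851 RefSeq promoters of this length, and no 2 matches in the members overlapped. Cd3eap held 2 CACGTG and 1 CCGGAAG, Rrn3 held 2 of each, and Polr1c and Polr1e held 1 CCGGAAG each. The promoters of the other 6 members, Twistnb among them, held neither set of letters.

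With the loess scaling, the summed contacts of the members were called in both directions at 33 h, and single contacts were called mostly as weaker. The contacts that cross their start bins were set relative to the chromosome instead. They fell from 10 h to imminent division in 10 of 10 members (55.7% of protein-coding start bins) and to pre-S in 9 of 10 (57.9%). With quantile normalization they fell in 5 and 5 (38.8 and 38.4%). Promoter interactivity is the sum of a start bin's contacts along its chromosome that exceed the usual level for their distance. From 3 h to 10 h, 0 of 10 members passed a false discovery rate of 5% in promoter interactivity with edgeR, where 0.43% of all start bins passed. In that comparison 1 member, Twistnb, had an unadjusted p under 0.05, and DESeq2 also called 0. From 10 h to imminent division 3 of 10 passed against 52.0% of all start bins, and from 10 h to pre-S 3 of 10 passed against 33.2%. Between the 33 h groups 1 of 10 passed against 21.3%. The members' median log2 change lay between -0.02 and 0.00. With the coverage of the start bin by other chromosomes in the offsets, 1 member passed at imminent division (30.3% of all start bins), 5 at pre-S, all higher (41.7%), and 5 between the 33 h groups, all lower at imminent division (41.4%). That offset moved the median start bin to 0.12 at pre-S and to -0.12 between the 33 h groups. With TMM factors the 3 calls at pre-S were all lower, where the loess scaling gave 2 higher and 1 lower, and 2 members passed between the 33 h groups, both higher. Over all 12565 start bins, TMM factors called 2892 higher and 2821 lower at pre-S. Between the 33 h groups they called 2192 higher and 2640 lower.

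The contacts within 2 Mb of the start bin, which are summed without a filter on strength, gave a similar count. With edgeR, 0 of 10 members passed from 3 h to 10 h (0.0679% of all start bins, 1 member with an unadjusted p under 0.05, 0 with DESeq2), 5 of 10 from 10 h to imminent division (44.2%), 2 of 10 from 10 h to pre-S (37.3%) and 0 of 10 between the 33 h groups (4.07%, 1 member with an unadjusted p under 0.05, 0 with DESeq2). Of the 5 called at imminent division, Twistnb and Polr1b rose and Cd3eap, Polr1d and Znrd1 fell. These counts depended on the scaling: with TMM factors the calls at imminent division were 5 lower and 0 higher (27.1% of all start bins lower), and with that coverage in the offsets 1 member passed (22.0%). At pre-S, TMM factors and DESeq2 each gave 4 lower and 0 higher, and coverage in the offsets 4 higher and 0 lower. Over all 13254 start bins, higher and lower calls at pre-S were 3553 and 3013 with TMM factors and 2960 and 3065 with DESeq2. With coverage in the offsets they were 4375 and 723.

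**Figure D1:**
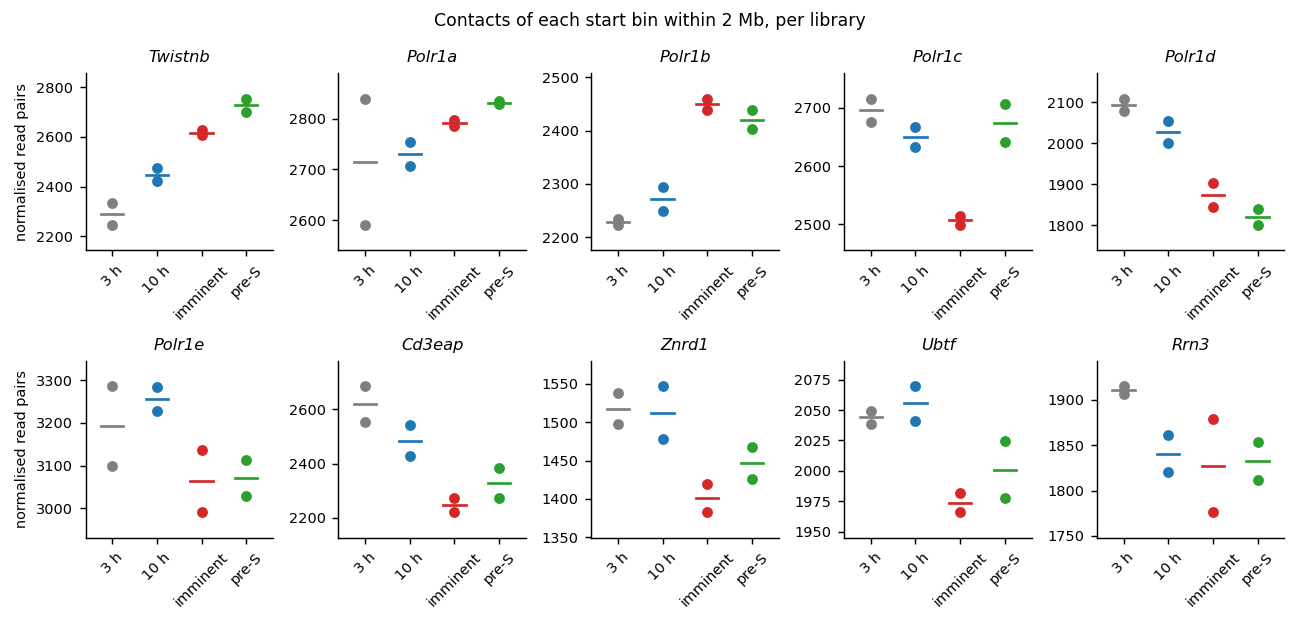
Contacts of each member's start bin with the bins within 2 Mb, in normalised read pairs (vertical axis, not starting at 0 and with its own range for each gene), for the 8 libraries. Points are libraries and bars are the means of the 2 libraries of a group; Twistnb climbed from 2245 and 2335 at 3 h to 2755 and 2702 in the pre-S group, while Polr1d and Cd3eap were lower in both 33 h groups than at 10 h, all with the loess scaling (TMM factors turned Twistnb to -0.03 at imminent division, and coverage in the offsets Polr1d to 0.07 at pre-S, with the median start bin at 0.10).

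Twistnb encodes a stalk subunit of the polymerase and is named after its neighbour Twist1. Its start bin is chr12:33400280-33449542, with 21 protein-coding genes starting within the window of 2 Mb on each side. With the loess scaling, this bin made more contacts in the order 3 h, 10 h, imminent division, pre-S. Its promoter interactivity, in read pairs normalised to the mean library, was 2121 and 2248 (3 h), 2352 and 2419 (10 h), 2458 and 2526 (imminent division) and 2658 and 2608 (pre-S). No group overlapped the next, yet each step alone missed the threshold with edgeR: the log2 change was 0.12 ± 0.04 (SE) from 3 h to 10 h (adjusted p = 0.17), 0.06 ± 0.04 from 10 h to imminent division (adjusted p = 0.15) and -0.08 ± 0.04 for imminent division minus pre-S (adjusted p = 0.14). The rise from 10 h to pre-S passed, with a log2 change of 0.14 ± 0.04 (edgeR, adjusted p = 0.0064). This call was lost without the first 10 h library (adjusted p = 0.085) or the first pre-S library (adjusted p = 0.098), and with TMM factors or DESeq2 (log2 change 0.09). It was 0.07 when all contacts on the chromosome were summed (adjusted p = 0.071) and 0.34 with the coverage by other chromosomes in the offsets.

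With the loess scaling, the contacts of Twistnb within 2 Mb followed the same order: 2245 and 2335 (3 h), 2423 and 2474 (10 h), 2607 and 2629 (imminent division) and 2755 and 2702 (pre-S). They rose from 10 h to pre-S by 0.16 ± 0.04 on the log2 scale (edgeR, adjusted p = 0.0047) and from 10 h to imminent division by 0.10 ± 0.04 (adjusted p = 0.04). The second call turned to -0.03 with TMM factors or DESeq2 and was lost without any 1 of the 10 h, imminent-division or pre-S libraries (adjusted p = 0.0553 to 0.234). The first fell to 0.05 with TMM factors (adjusted p = 0.32) and was lost without the first library of either group (adjusted p = 0.061 and 0.074). With partners within 1 Mb alone both missed the threshold, at 0.05 each (adjusted p = 0.39 at pre-S and 0.37 at imminent division). The coverage of the bin by other chromosomes, in log2 relative to the mean bin of the library, went the other way, from 0.51 in both 10 h libraries to 0.31 in both pre-S libraries. With that coverage in the offsets the rise to pre-S was 0.36, where the median start bin shifted by 0.10. Set against the expected contact at each distance, as described below, no distance class was higher in both pre-S libraries than in both 10 h libraries.

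The strongest partners of Twistnb lay far away and on the side of higher coordinates. Contact was set against the mean of all autosomal bin pairs at the same distance in the same library, and the strongest partner, 1.75 Mb from the start bin (chr12:35149876-35199936), stood above it by a ratio of 19.5 and 14.5 (3 h), 18.8 and 16.2 (10 h), 10.9 and 9.8 (imminent division) and 14.9 and 15.2 (pre-S). No protein-coding gene overlaps this bin. Snx13, a sorting nexin, ends just before it (chr12:35047186-35147479), in a bin with a mean ratio of 7.69, and the bin on the far side had a mean ratio of 10.2. The 5 bins next to Twistnb on the same side, at 50 to 250 kb, stood at 0.40 to 0.74 of the expected contact. The 5 bins at those distances on the other side stood at 0.71 to 1.31. On the side of higher coordinates Twistnb thus met the bins beside it less, and bins far along the chromosome more, than bins at these distances did on average. Over the 40 partner bins of both sides from beyond 1 Mb up to 2 Mb its mean ratio was 3.802 and 3.798 (3 h), 4.09 and 3.87 (10 h), 3.23 and 3.57 (imminent division) and 3.68 and 3.61 (pre-S). All 4 libraries at 33 h were below all earlier ones in this ratio, unlike the sums above. The next highest member, Polr1b, stood at 1.39 and 1.46 at 10 h. Nearer to Twistnb, at 50 to 150 kb and at 200 to 500 kb, both pre-S libraries lay within the range at 10 h. At 550 kb to 1 Mb they were below both 10 h libraries (1.923 and 2.0003 against 2.275 and 2.086). The rise of the loess-scaled sums to pre-S thus did not show in these ratios. At imminent division the ratio was above both 10 h libraries at 50 to 150 kb alone (0.952 and 1.025 against 0.826 and 0.913).

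The imminent-division libraries had the lowest ratios at the strongest partner, both below every other library, but the change did not pass. The raw counts behind it were 56 and 82 (3 h), 78 and 89 (10 h), 74 and 78 (imminent division) and 67 and 60 (pre-S). The log2 change from 10 h to imminent division was -0.43 (edgeR, adjusted p = 0.18). The bins on either side of this partner did not have their lowest ratio at imminent division. In the order 3 h, 10 h, imminent division and pre-S, the group means were 6.69, 7.68, 8.37 and 8.02 at 1700 kb. At 1800 kb they were 9.19, 11.7, 9.91 and 9.83. Of the 80 tested bin pairs of the Twistnb start bin 0 passed with edgeR in any of the 4 comparisons, while 9 from 3 h to 10 h, 9 at imminent division, 5 at pre-S and 5 between the 33 h groups had an unadjusted p under 0.05. The median log2 change of these 80 pairs was -0.17 from 10 h to imminent division, against 0.03 over all pairs tested. The partner bin is represented here by the stretches around its 2 matches to the core pattern of CTCF, with the 12 bases of the match in capitals, since CTCF is the DNA-binding protein found at most loop anchors; both matches read on the reverse strand.
Twistnb partner, match nearer to Twistnb, chr12:35161881-35161920, - strand: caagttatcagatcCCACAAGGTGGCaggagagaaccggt
Twistnb partner, match farther from Twistnb, chr12:35192350-35192389, - strand: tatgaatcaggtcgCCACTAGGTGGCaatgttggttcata
Polr1e partner within Pax5, chr4:44669670-44669709, - strand: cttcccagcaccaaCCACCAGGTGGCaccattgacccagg
The pattern, searched on both strands, stood in 27.2% of the 47332 bins kept. It stood in 2 of the 10 start bins, those of Cd3eap and Znrd1, and in 6 of the 10 strongest partner bins.

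**Figure D2:**
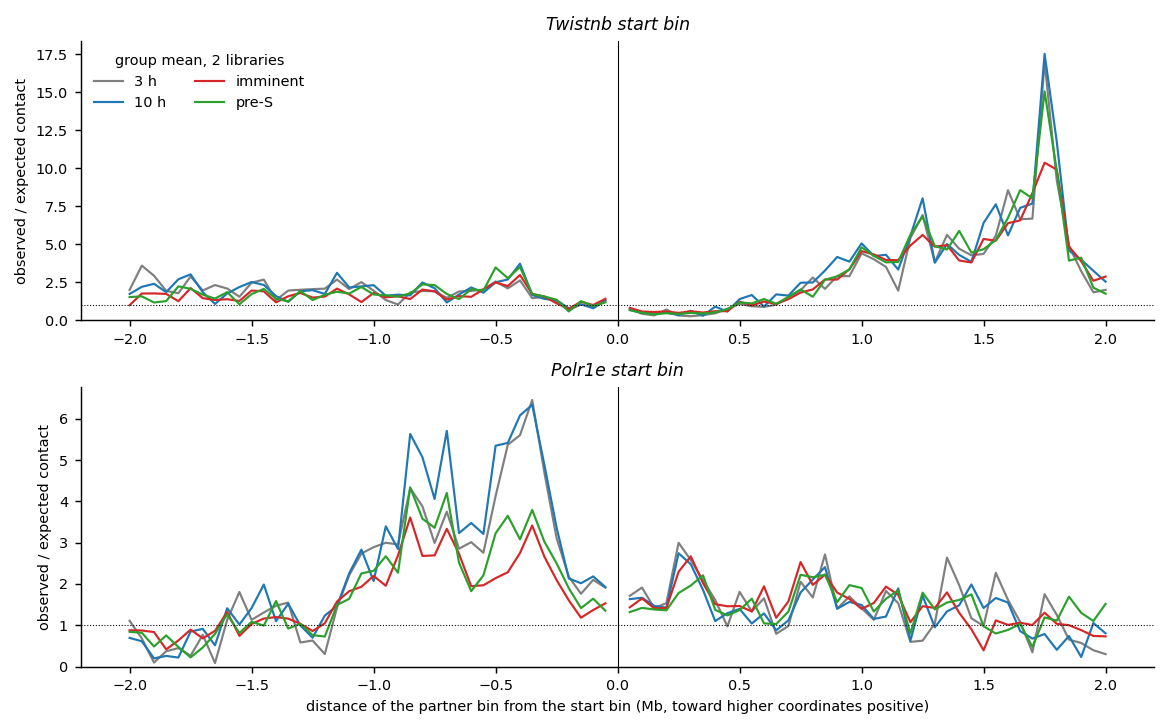
Contact of the Twistnb (top) and Polr1e (bottom) start bins with each 50 kb bin within 2 Mb, as the ratio of observed to expected contact at that distance (vertical axis), against the distance of the partner in Mb (horizontal axis). Lines are means of 2 libraries and the dotted line marks a ratio of 1; the Twistnb peak at 1.75 Mb is lowest at imminent division, and the Polr1e partners between -0.95 and -0.1 Mb are lower in both 33 h groups than at 10 h.

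Polr1a and Polr1b encode the large subunits that form the catalytic cleft. Polr1b was higher in promoter interactivity at 33 h, at 1951 and 1923 (3 h), 2057 and 2025 (10 h), 2249 and 2267 (imminent division) and 2178 and 2166 (pre-S). All 4 libraries at 33 h stood above all 4 earlier ones. The rise from 10 h to imminent division was 0.15 ± 0.04 on the log2 scale (edgeR, adjusted p = 0.001) and held without any single library, but it missed the threshold with the coverage by other chromosomes in the offsets (adjusted p = 0.069) and was 0.03 when all contacts on the chromosome were summed. Its contacts within 2 Mb, 2295 and 2250 at 10 h against 2439 and 2460 at imminent division, passed as well (0.11 ± 0.04, adjusted p = 0.02), but were at 0.02 with TMM factors and lost without any 1 of the 4 libraries compared (adjusted p = 0.0514 to 0.156). The rise of promoter interactivity to pre-S, 0.09 ± 0.04, missed the threshold (adjusted p = 0.078). Not all distances rose from 10 h to imminent division. Against the expected contact, Polr1b at 200 to 500 kb went from 1.76 and 1.66 down to 1.61 and 1.59. At 550 kb to 1 Mb it went from 0.76 and 0.89 up to 0.94 and 0.98, and in the other distance classes the libraries overlapped. The strongest partner of Polr1b, the bin of Ckap2l at 150 kb, had a mean ratio of 2.27. Polr1a did not pass in any comparison of summed contacts. Its strongest partner was 250 kb away over St3gal5, a sialyltransferase gene, with a ratio of 8.34 and 9.03 (3 h), 8.31 and 6.99 (10 h), 4.93 and 5.54 (imminent division) and 6.23 and 6.94 (pre-S). The imminent-division libraries were the lowest there, but this pair was not called in any comparison. Of single bin pairs, Polr1a weakened with the bin of Capg and Sh2d6 at 600 kb (46.6 and 46.3 normalised read pairs at 10 h, 24.8 and 22.3 at imminent division, log2 change -0.98 ± 0.23, adjusted p = 0.0077) and strengthened with the bin of Immt and Mrpl35 at -100 kb (log2 change 0.40 ± 0.12, adjusted p = 0.048). The gain was 0.24 with TMM factors (adjusted p = 0.3) and 0.07 with the coverage by other chromosomes in the offsets (adjusted p = 0.84).

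Polr1c and Polr1d encode the assembly platform, which polymerase III also uses. Both made fewer contacts at imminent division, in different measures. Polr1c fell in promoter interactivity from 2879 and 2787 at 10 h to 2637 and 2657 at imminent division (log2 change -0.10 ± 0.03, edgeR, adjusted p = 0.019), while the pre-S libraries, at 2806 and 2807, lay within the range at 10 h. That call was lost without the first 10 h library or either imminent-division library (adjusted p = 0.057 to 0.18) and with DESeq2 (adjusted p = 0.089). The change was -0.03 with the coverage by other chromosomes in the offsets (adjusted p = 0.78). Polr1d fell in contacts within 2 Mb from 2054 and 2001 at 10 h to 1845 and 1902 at imminent division (log2 change -0.11 ± 0.04, adjusted p = 0.025) and to 1841 and 1800 in the pre-S group (log2 change -0.15 ± 0.04, adjusted p = 0.0084). The fall to pre-S came with a fall in coverage by other chromosomes, from 0.31 and 0.30 to 0.01 and 0.15, and the change was 0.07 with that coverage in the offsets, where the median start bin stood at 0.10. The call at imminent division was lost without either 10 h library or the first imminent-division library (adjusted p = 0.07 to 0.17) and with that coverage in the offsets (adjusted p = 0.28), and that at pre-S without the first 10 h library or either pre-S library (adjusted p = 0.053 to 0.079). Polr1c weakened at imminent division with the bin of Cdc5l at -800 kb (log2 change -0.99 ± 0.27, adjusted p = 0.027), and Polr1d with a bin at 500 kb (-0.87 ± 0.26, adjusted p = 0.0497) over Flt1. Both calls were lost with a filter at 2-fold the background, and that of Polr1d also with TMM factors and with DESeq2 size factors. In the pre-S group Polr1d weakened with a bin at 400 kb over Pan3 (-1.02 ± 0.27, adjusted p = 0.043), a call lost without any 1 of the 4 libraries compared, with coverage in the offsets (adjusted p = 0.18) and with a filter at 2-fold the background (adjusted p = 0.14). The strongest partner of Polr1c, at -550 kb with the starts of Capn11, Mrpl14 and Tmem63b, had a mean ratio of 4.09. That of Polr1d, at -1900 kb with those of Atp5j2, Cpsf4 and Ptcd1, had a mean ratio of 2.39 on 6 to 25 read pairs per library.

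Polr1e and Cd3eap encode the heterodimer of the polymerase, and their start bins held 18 of the 25 single contacts of members that changed from 10 h to imminent division. Of 508 bin pairs of the 10 start bins that were tested, 25 passed in that comparison (4.92%), 23 weaker and 2 stronger, where 2.01% of all pairs tested passed and 1.32% were weaker. With a filter at 2-fold the interchromosomal background 13 passed, all weaker. From 10 h to pre-S 6 of 508 passed, all weaker (0.593% of all pairs passed, 0.255% weaker), and between the 33 h groups 1, stronger at imminent division (0.36% of all pairs). With coverage by other chromosomes in the offsets 2 were stronger and 1 weaker at pre-S, and 1 stronger and 41 weaker between the 33 h groups. That setting also called 13362 stronger and 32228 weaker of all 1459324 pairs between the 33 h groups. The shares of all pairs with the 2-fold filter, and with that coverage at pre-S, are not given here. From 3 h to 10 h 0 of 508 passed with edgeR (0.000617% of all pairs), while 43 had an unadjusted p under 0.05 and edgeR with DESeq2 size factors also called 0. Neighbouring pairs of 1 start bin are not independent of each other.

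The Polr1e start bin (chr4:45000530-45050046) lost contacts along 1 side. From 10 h to imminent division 14 of its 63 tested pairs weakened and 0 strengthened, and all 14 partners lay between -950 and -100 kb, a stretch that holds Pax5 and Zcchc7. The strongest partner of Polr1e, at -350 kb over Pax5, had a mean ratio of 5.0. Pax5 (chr4:44524757-44710487) encodes a transcription factor that maintains B cell identity. The contacts of Polr1e with the 5 bins over Pax5 summed to 666 and 615 (3 h), 703 and 699 (10 h), 375 and 404 (imminent division) and 443 and 427 (pre-S) normalised read pairs. The 33 h libraries lay well below the earlier ones, with no overlap. The raw counts behind these sums were 308 to 762. With the 4 bins over Zcchc7 (chr4:44755877-44932215) the sums were 529 and 496, 538 and 561, 361 and 423, and 426 and 433 in the same order, which was a smaller drop.

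Pair by pair, the contact of Polr1e with the bin at -500 kb went from 116 and 91.9 normalised read pairs at 10 h to 45.2 and 44.5 at imminent division (log2 change -1.20 ± 0.17, edgeR, adjusted p = 2.4e-07). Those at -450 kb (-1.09 ± 0.16) and -400 kb (-0.95 ± 0.14) fell as well, and these 3 passed under each of the 13 alternatives tried. All 5 bins over Pax5 and 3 of the 4 over Zcchc7 passed at imminent division. The number of called pairs moved with the libraries: leaving out the 10 h libraries in turn gave 9 and 5, and leaving out the imminent-division libraries in turn 7 and 9. From 10 h to pre-S, 5 pairs of Polr1e weakened, 3 of them over Pax5, with the bin at -400 kb at -0.92 ± 0.16 (adjusted p = 7.9e-05). Leaving out a 10 h library or the first pre-S library reduced these 5 to 1, and leaving out the other pre-S library to 0. With the coverage by other chromosomes in the offsets 4 of the 5 missed the threshold. Between the 33 h groups the log2 difference of imminent division minus pre-S was -0.53 ± 0.20 at -500 kb (adjusted p = 0.27) and -0.03 ± 0.17 at -400 kb (adjusted p = 0.98).

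**Figure D3:**
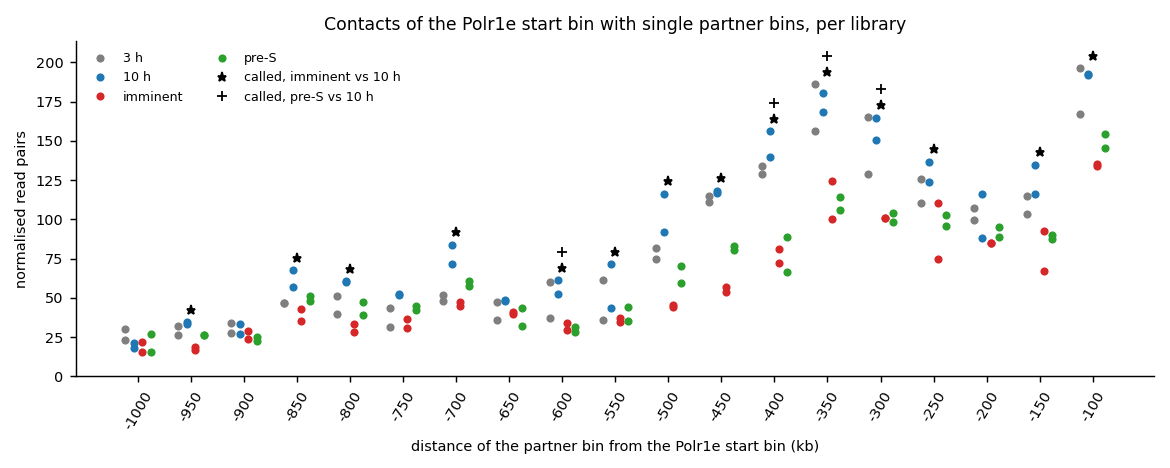
Normalised read pairs (vertical axis) between the Polr1e start bin and each 50 kb bin from -1000 to -100 kb (horizontal axis), 1 point per library. Stars mark pairs that passed from 10 h to imminent division and crosses those from 10 h to pre-S; at the starred pairs the imminent-division points lie below the 10 h points.

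The same loss showed in the balance of the locus. The side of lower coordinates held 63.3 and 64.8% of the contacts of Polr1e within 2 Mb at 10 h, which was 59.4 and 61.6% at 3 h, with 53.8 and 52.8% at imminent division, while the pre-S libraries held 58.3 and 56.6%. The imminent-division libraries were the most even. Among all pairs of bins within the Polr1e window, 179 of 2493 weakened and 8 strengthened from 10 h to imminent division (7.5% called, against 2.01% of all pairs tested), and 43 weakened and 0 strengthened from 10 h to pre-S. The windows of the other 9 members ran from 0.929 to 6.4% called at imminent division, with Ubtf at 6.4%, Polr1c at 5.62% and Cd3eap at 5.26%. In promoter interactivity Polr1e fell from 3193 and 3141 at 10 h to 2987 and 2874 in the pre-S group (log2 change -0.11 ± 0.04, edgeR, adjusted p = 0.029), and at imminent division it stood at 2906 and 3072 (log2 change -0.08 ± 0.04, adjusted p = 0.059). The pre-S call was lost without any of the 4 libraries of its groups (adjusted p = 0.071 to 0.21), and the change was 0.03 with the coverage by other chromosomes in the offsets, where the median start bin stood at 0.12. That coverage went from 0.82 and 0.76 at 10 h to 0.60 and 0.70 in the pre-S group.

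Cd3eap lies on chromosome 7, where 54 of the 80 bins of its window were kept. Its contacts within 2 Mb were 2687 and 2552 (3 h), 2541 and 2427 (10 h), 2273 and 2220 (imminent division) and 2273 and 2384 (pre-S), so that all 33 h libraries were below all earlier ones. The fall from 10 h to imminent division was -0.14 ± 0.04 (log2 scale, edgeR, adjusted p = 0.0072) and was lost without the first 10 h library (adjusted p = 0.1) or the second imminent-division library (adjusted p = 0.056) and with the coverage by other chromosomes in the offsets (adjusted p = 0.235); the fall to pre-S missed the threshold (-0.09 ± 0.04, adjusted p = 0.098). At imminent division 4 of its 22 tested pairs weakened. The largest loss by log2 change was -0.84 ± 0.22 with the bin of Ceacam16 at 500 kb, and the pair with the smallest p was that with Foxa3, Irf2bp1 and Sympk at -350 kb (78.7 and 81.0 normalised read pairs at 10 h, 46.6 and 43.4 at imminent division, -0.83 ± 0.18, adjusted p = 0.0023). The other two were with the bins at -300 kb (-0.57 ± 0.17, adjusted p = 0.041), where Dmpk and Six5 start, and at -250 kb (-0.50 ± 0.13, adjusted p = 0.021), where Fbxo46 and Snrpd2 start. The calls at -300, -250 and 500 kb were lost with a filter at 2-fold the background. The strongest partner of Cd3eap, the bin of Eml2 and Gipr at -200 kb, had a mean ratio of 3.77. Its contact with the bin of Gemin7, Ppp1r37 and Zfp296 at 200 kb was the 1 member pair that passed between the 33 h groups: 133 and 126 normalised read pairs at imminent division and 76.0 and 90.1 in the pre-S group, beside 116 and 111 at 10 h (log2 difference 0.64 ± 0.15, adjusted p = 0.017). That call was lost without any 1 of the 4 libraries compared (adjusted p = 0.0667 to 0.474). The difference was 0.31 with the coverage by other chromosomes in the offsets (adjusted p = 0.32).

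Znrd1 encodes a small subunit that takes part in RNA cleavage, and its start bin lies among genes of the major histocompatibility complex. It fell at imminent division in promoter interactivity, from 1938 and 1995 at 10 h to 1854 and 1796 (log2 change -0.11 ± 0.04, edgeR, adjusted p = 0.017), and in contacts within 2 Mb, from 1478 and 1547 to 1419 and 1383 (-0.11 ± 0.04, adjusted p = 0.036). Both calls turned to 0.03 (log2) with the coverage by other chromosomes in the offsets, and that coverage went from 0.89 and 0.87 at 10 h to 0.69 and 0.78 at imminent division. The first was lost without the second library of either group and the second without any 1 of the 4 libraries compared. The first also missed the threshold with DESeq2 (adjusted p = 0.095), and the second was at 0.00 with TMM factors and -0.01 with DESeq2. Of the 26 tested bin pairs of Znrd1 0 passed with edgeR in any comparison (1, 5, 6 and 2 with an unadjusted p under 0.05, in the order of the comparisons above), and its strongest partner, at -700 kb over H2-M10.2, Rpp21 and Trim39, reached a mean ratio of 1.81.

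Of the initiation factors, Rrn3 was higher in promoter interactivity in the pre-S group than in any other. Its promoter interactivity was 2318 and 2355 (3 h), 2232 and 2348 (10 h), 2263 and 2316 (imminent division) and 2488 and 2538 (pre-S). The pre-S libraries alone stood apart, by 0.13 ± 0.04 on the log2 scale against 10 h (edgeR, adjusted p = 0.011), and the difference of imminent division minus pre-S was -0.13 ± 0.04 (adjusted p = 0.012). Neither passed with TMM factors (0.08 and -0.08), the first was lost with the coverage by other chromosomes in the offsets (adjusted p = 0.18) and without the first 10 h library or either pre-S library, and the second without the first imminent-division or the second pre-S library. Its contacts within 2 Mb, 1820 and 1861 at 10 h and 1812 and 1854 in the pre-S group, did not pass in any comparison. Its strongest partner, 1.85 Mb away over Mcm4 and Prkdc, had a mean ratio of 3.68, on 12 to 33 read pairs per library. Rrn3 weakened at imminent division with the bin of Ercc4, a DNA repair nuclease, at -650 kb, from 34.6 and 35.1 normalised read pairs at 10 h to 11.97 and 16.84 (-1.25 ± 0.28, adjusted p = 0.0036). Ubtf did not pass in summed contacts; it gained contact with the bin of Fzd2, a Wnt receptor, at 300 kb, from 26.9 and 20.7 at 10 h to 38.9 and 44.6 at imminent division (0.84 ± 0.25, adjusted p = 0.044), and lost contact with the bin of Mpp2 at -250 kb (-0.65 ± 0.19, adjusted p = 0.048). The gain missed the threshold with coverage in the offsets (0.54, adjusted p = 0.24). The loss missed it with TMM factors (adjusted p = 0.055) and DESeq2 size factors (adjusted p = 0.0577). A fit with the replicate number as a block ended both calls of Ubtf, as did a filter at 2-fold the background. Its strongest partner, at 100 kb, holds the starts of Fam171a2, Grn and Slc25a39 and had a mean ratio of 3.51. Outside Polr1e, all 11 single contacts called at imminent division were lost when 10 h replicate 2 was left out, 9 when 10 h replicate 1 was, and 8 for each imminent-division library.

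Without quantile normalization, insulation was the measure in which the most members passed from 10 h to 33 h. The insulation score of a bin is the log2 of the contacts that cross it within 500 kb on each side, relative to the median of the chromosome, and a low score marks a border between domains. From 3 h to 10 h 0 of 10 members passed with limma (0.0171% of all bins, 1 member with an unadjusted p under 0.05). From 10 h to imminent division all 10 fell (5 with quantile normalization, under which Polr1b turned upward), where 55.7% of the start bins of protein-coding genes fell, and from 10 h to pre-S 9 of 10 fell, where 57.9% did. Counting every bin of the genome in either direction, 57.3 and 58.9% passed in these 2 comparisons, and 33.3 and 34.8% fell. The members' median log2 change was -0.44 at imminent division and -0.42 in the pre-S group, against -0.20 and -0.21 over all start bins. In each of the 10 members both imminent-division and both pre-S libraries lay below both 10 h libraries, as they did in 68.8 and 73.8% of all start bins. Between the 33 h groups 0 of 10 passed (9.22% of all bins, 3 members with an unadjusted p under 0.05).

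Polr1e fell most, from 1.19 and 1.28 at 10 h to 0.51 and 0.67 at imminent division (log2 change -0.65 ± 0.08, limma, adjusted p = 7.9e-05) and to 0.64 and 0.60 in the pre-S group (-0.61 ± 0.08, adjusted p = 0.00034). Polr1c fell from 1.02 and 1.13 to 0.41 and 0.53 at imminent division (-0.61 ± 0.08) and to 0.56 and 0.70 in the pre-S group (-0.44 ± 0.08). Twistnb was the 1 member with a low score in every library: its score was -0.69 and -0.72 (3 h), -0.85 and -0.55 (10 h), -1.16 and -1.06 (imminent division) and -1.34 and -1.18 (pre-S). It fell by 0.42 ± 0.09 at imminent division (adjusted p = 0.0024) and by 0.56 ± 0.09 in the pre-S group (adjusted p = 0.0007), from a rank at the 9.11 and 22.1 percentile of all bins at 10 h to between the 2.14 and 3.19 percentile at 33 h. The lowest score within 250 kb of Twistnb was in its own start bin from 10 h on. Without quantile normalization, Polr1a, Polr1d, Cd3eap and Rrn3 fell by 0.44 to 0.46 at imminent division, and Polr1b, Znrd1 and Ubtf by 0.27 to 0.30. In the pre-S group Znrd1 alone missed the threshold (-0.14 ± 0.06, adjusted p = 0.071).

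The scaling bore on these counts. When the scores of the 8 libraries were given the same distribution by quantile normalization, 5 of 10 members fell in each comparison of a 33 h group with 10 h, against 38.8 and 38.4% of all start bins. The medians were -0.19 and -0.17 over the members and -0.09 and -0.10 over all start bins. With a window of 1 Mb on each side 8 of 10 members passed in each comparison, and with 250 kb 10 and 8. The share of start bins that fell was not computed for these windows, so these counts cannot be set against it. Twistnb, Polr1c, Polr1e and Rrn3 passed in both comparisons under each of the 12 alternatives. Leaving out any 1 of the 4 libraries compared ended the pre-S calls of Polr1b and Ubtf (adjusted p = 0.0513 to 0.209). With quantile normalization Polr1b turned to 0.04 in both, and Polr1d and Ubtf to 0.08 and 0.07 in the pre-S group. It also ended the calls of Polr1a, Polr1d, Cd3eap and Ubtf at imminent division. The smallest falls of these genes over the alternatives were -0.13, -0.03, -0.13 and -0.02, in that order. In percentiles, Polr1c went from 85.5 and 88.5 at 10 h to 73.7 and 75.7 at imminent division, and Polr1e from 89.9 and 92.1 to 78.5 and 81.3. Polr1d stayed at 98.6 to 99.2 in all 8 libraries.

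**Figure D4:**
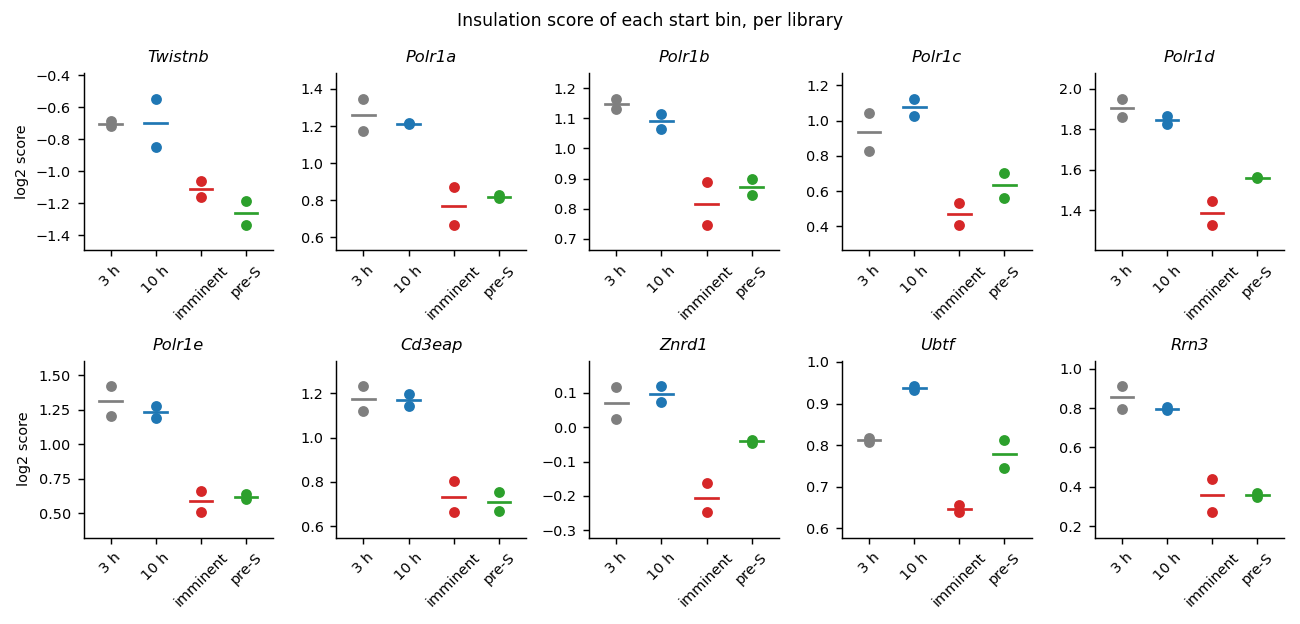
Insulation score of each member's start bin (vertical axis, log2, with its own range for each gene), 1 point per library with bars for the means of 2 libraries. Every 33 h point lies below both 10 h points of the same gene in these scores, which were not quantile-normalized (with that, Polr1b, Polr1d and Ubtf turned upward in the pre-S group), and Twistnb is the 1 gene below 0 throughout.

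The compartment component is the first principal component of the contact pattern in 100 kb bins, positive in the active A compartment, and all 10 members were in A in all 8 libraries. From 3 h to 10 h 0 of 10 passed with limma (3.1% of all bins, 0 members with an unadjusted p under 0.05). At imminent division 1 of 10 passed (21.9%), in the pre-S group 3 of 10 (25.3%) and between the 33 h groups 2 of 10 (18.6%). Znrd1 fell from 0.70 and 0.73 at 10 h to 0.54 and 0.51 at imminent division (-0.19 ± 0.04, adjusted p = 0.0028), which held under each of the 11 alternatives, and to 0.60 and 0.52 in the pre-S group (-0.15 ± 0.04, adjusted p = 0.009). Twistnb stood at 0.78 and 0.83 (10 h), 0.80 and 0.84 (imminent division) and 0.67 in both pre-S libraries: it fell in the pre-S group against 10 h (-0.14 ± 0.03, adjusted p = 0.0077) and differed between the 33 h groups (0.15 ± 0.03, adjusted p = 0.0074). Polr1d behaved alike, at 1.115 and 1.137, 1.088 and 1.125, and 0.983 and 0.932 in the same order (-0.17 ± 0.04 against 10 h, adjusted p = 0.0069; 0.15 ± 0.04 between the 33 h groups, adjusted p = 0.02). Among all bins 5422 fell and 600 rose from 10 h to pre-S, and with quantile normalization 2778 fell and 2656 rose. Under it the change of Twistnb was -0.04 (adjusted p = 0.3) and that of Znrd1 in the pre-S group -0.04 (adjusted p = 0.38). The differences between the 33 h groups were then 0.06 for Twistnb (adjusted p = 0.095) and 0.08 for Polr1d (adjusted p = 0.054). The pre-S calls of Twistnb, Polr1d and Znrd1 were lost when replicate 2 of either group was left out (adjusted p = 0.0532 to 0.126), and that of Twistnb also when pre-S replicate 1 was and with 250 kb bins (-0.04, adjusted p = 0.12). Between the 33 h groups both calls were lost when replicate 2 of either group was left out, that of Twistnb also when pre-S replicate 1 was and that of Polr1d when imminent-division replicate 1 was. In 7 of the 10 members the coverage by other chromosomes was also lower in both pre-S libraries than in both 10 h libraries, as it was in 68.9% of all start bins, and its part in the compartment changes was not tested.

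**Figure D5:**
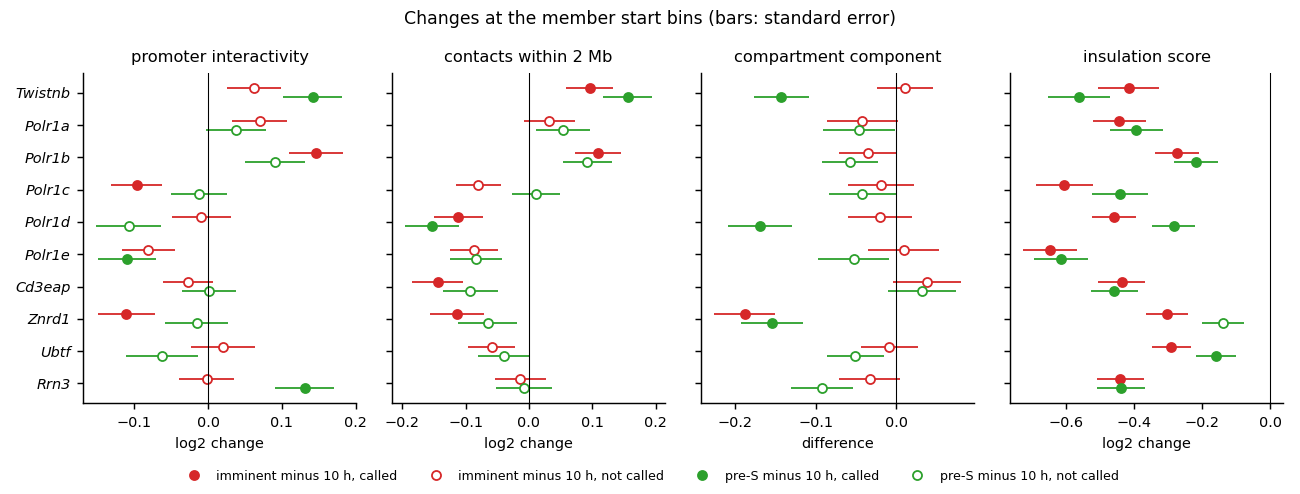
Change of each member from 10 h to imminent division (red) and to pre-S (green) in promoter interactivity, contacts within 2 Mb, compartment component and insulation score (horizontal axes, log2 except for the component). Bars are standard errors, and filled points passed a false discovery rate of 5%; the insulation panel, shown without quantile normalization, which turned Polr1b, Polr1d and Ubtf upward at pre-S, is the 1 panel with all points on 1 side of 0.

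Other genes of ribosome production, set out in 4 further lists, changed in promoter interactivity in both directions. At imminent division against 10 h, 3 of 7 preinitiation and termination factors passed, with Tbp, the TATA-binding protein, at 0.17 ± 0.04, Cavin1 at 0.11 ± 0.04 and Taf1c at -0.13 ± 0.04. Of the 5 subunits shared by the nuclear polymerases, 4 fell: Polr2h by 0.15 ± 0.04, Polr2l by 0.13 ± 0.03, Polr2f by 0.10 ± 0.04 and Polr2e by 0.09 ± 0.04. Of 11 polymerase III subunits 4 fell and 0 rose, with Polr3a, the catalytic subunit, at -0.37 ± 0.04. Of the 13 nucleolar processing and assembly genes tested, 4 rose and 4 fell, among them Wdr12 (0.26 ± 0.04), Rrs1 (0.24 ± 0.04), Fbl (-0.20 ± 0.04) and Bop1 (-0.19 ± 0.04). The list medians were 0.00, -0.10, -0.07 and -0.08 in that order, against 0.00 over all start bins, of which 52.0% passed. Of the 12565 start bins tested, 3281 passed as higher and 3254 as lower. In the pre-S group against 10 h, 3 of 7, 1 of 5, 3 of 11 and 7 of 13 passed, against 33.2% of all start bins.

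The start bins whose promoter interactivity ran most like that of Twistnb over the 8 libraries were those of Ccng1, Pigm, Lrrc1, Vmn2r1 and Mei4 on other chromosomes, with Pearson correlations of 0.99, 0.98, 0.98, 0.98 and 0.98. Of 12112 bins on other chromosomes 1.61% exceeded a correlation of 0.9, so this likeness is a description over 4 groups of 2 libraries that share their stages. The Ccng1 bin, for example, rose from 947 and 1008 normalised read pairs at 3 h to 1209 and 1154 in the pre-S group.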

How the data were processed

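In situ Hi-C was analysed in 8 libraries. The authors aligned paired reads of 81 bases to mm10 with the diffHic pipeline, removed duplicates, dangling ends and long fragments, and deposited raw counts of read pairs per pair of 50 kb bins, 1 library per file. Bin coordinates, which the files do not hold, were rebuilt from MboI fragments, and 756 bins of abnormal or no coverage were left out. Total counts, 88703088 to 218945191 read pairs, set the precision; replicates were labelled biological.

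The members and lists were chosen with earlier results of these data known. Named are all 10 members, the strongest of the 3 partner bins ranked for each, the called bin pairs with the smallest p (all where a member has 5 or fewer; further Polr1e pairs were chosen after their values were seen), up to 6 genes per list with the largest change, and the 5 start bins most correlated with Twistnb.

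Counts were compared over all features with quasi-likelihood tests in edgeR 4.0.16 (R 4.3.3) with loess offsets; bins under 200 counts were left out of promoter interactivity, and bin pairs needed 4-fold the interchromosomal background and a summed count of 10. Compartment components (100 kb) and insulation scores (500 kb) were tested with limma 3.58.1. All 8 libraries entered each fit, with Benjamini-Hochberg adjustment and a false discovery rate of 5%. Fits were tested on simulated data. Alternatives included DESeq2 1.42.0, TMM factors, interchromosomal coverage in the offsets, other windows and filters, quantile normalization, a replicate block and leaving out each library.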

Additional observations from a re-analysis of the deposited data

Results flagged for a closer look

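Between the 33 h groups, 4 member results differed by the test of the difference itself, as imminent division minus pre-S. Promoter interactivity of Rrn3 was lower at imminent division by a log2 difference of -0.13. The compartment component was higher at imminent division by 0.15 for Twistnb and by 0.15 for Polr1d, and neither passed with quantile normalization (0.06 and 0.08). The contact of Cd3eap with the bin at 200 kb was stronger at imminent division by a log2 difference of 0.64. With interchromosomal coverage in the offsets that contact missed the threshold (0.31, adjusted p = 0.32) and Rrn3 was at -0.28, where the median start bin stood at -0.12. Pre-S cells came from mice carrying the FUCCI reporter and another gate than the imminent-division cells, and these cannot be told apart from the stage. The interchromosomal coverage of the Twistnb bin was 0.43 and 0.53 at imminent division and 0.31 in both pre-S libraries, that of Polr1d 0.24 and 0.35 against 0.01 and 0.15, and its part in the compartment differences was not tested.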

How the results depend on the processing

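The 71 called member results were each set against 11 to 15 alternatives, which made 913 comparisons of a result with an alternative. In 654 of these the result stayed past the threshold with its direction, in 249 it lost the call and in 10 it reversed. The cause was not tested. The counts of members called follow in the order 10 h against 3 h, imminent division against 10 h, pre-S against 10 h, and imminent division against pre-S, and were 0, 3, 3 and 1 in promoter interactivity, 0, 5, 2 and 0 in contacts within 2 Mb, 0, 25, 6 and 1 in single bin pairs, 0, 1, 3 and 2 in the compartment component, and 0, 10, 9 and 0 in insulation. In promoter interactivity, DESeq2 gave 1, 1 and 0 in the last 3 comparisons, interchromosomal coverage in the offsets 1 lower, 5 higher and 5 lower, TMM factors 2 higher between the 33 h groups and the sum of all contacts 0 there. In contacts within 2 Mb, coverage in the offsets gave 1 lower, 4 higher and 7 lower, partners within 1 Mb 3 and 1 against 10 h, leaving out the adjacent bins 3 at imminent division, and TMM factors and DESeq2 4 each at pre-S, all lower. In single bin pairs, TMM factors gave 39, 11 and 2, DESeq2 size factors 39, 10 and 2, coverage in the offsets 48 (all weaker), 3 (2 stronger) and 42 (41 weaker), and a filter at 2-fold the background 13, 3 and 0. Over all pairs, the calls at imminent division ran from 11094 to 58722 over the alternatives with all 8 libraries (29326 as reported). The member counts cannot be read apart from that range. In the compartment component, 250 kb bins gave 1 at 10 h against 3 h and 3 at imminent division, and quantile normalization 1 at pre-S and 1 between the 33 h groups. Over all bins, the calls at imminent division ran from 3196 to 7377 over the alternatives with all 8 libraries (5200 as reported). In insulation, quantile normalization gave 5, 5 and 1, a window of 1 Mb 8 and 8 against 10 h, and one of 250 kb 10 and 8. Reversed were Znrd1 (0.035 in promoter interactivity and 0.032 in contacts within 2 Mb at imminent division), Polr1e (0.027 in promoter interactivity at pre-S) and Polr1d (0.071 in contacts within 2 Mb at pre-S) with coverage in the offsets, which put the median start bin at 0.12 and 0.10 at pre-S; Twistnb in contacts within 2 Mb at imminent division (-0.030 with TMM factors, -0.033 with DESeq2); and in insulation with quantile normalization Polr1b (0.042 at imminent division, 0.044 at pre-S), Polr1d (0.079 at pre-S) and Ubtf (0.072 at pre-S).

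Leaving out 1 library at a time gave, in the same order of comparisons, 0 to 0, 2 to 4, 0 to 4 and 0 to 1 members in promoter interactivity, 0 to 0, 0 to 7, 0 to 3 and 0 to 0 in contacts within 2 Mb, 0 to 0, 5 to 27, 0 to 7 and 0 to 1 in single bin pairs, 0 to 5, 1 to 1, 0 to 4 and 0 to 2 in the compartment component, and 0 to 1, 10 to 10, 7 to 10 and 0 to 3 in insulation. The 25 bin pairs fell to 5 when 10 h replicate 2 was left out, to 10 for imminent-division replicate 1 and to 11 for 10 h replicate 1. A group left with 1 library was assumed to vary like the others. Same-numbered libraries deviated with correlations of -0.443 to 0.138. Each correlation rests on 1 difference between replicates per group, so it cannot settle whether the numbers pair libraries. The labels do not say this either, and the main fits did not pair them. The replicate block gave 3 members in contacts within 2 Mb at imminent division, 19 and 4 single bin pairs against 10 h and 8 members in insulation at pre-S, and the same counts elsewhere.

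Over all start bins, higher and lower calls from 10 h to pre-S were 2143 and 2030 in promoter interactivity (4766 and 472 with coverage in the offsets, which moved the median by 0.12) and 2542 and 2399 within 2 Mb (4375 and 723); between the 33 h groups they were 1284 and 1389 (594 and 4606) and 287 and 253 (498 and 4094, and 11 and 1 with TMM factors). For bin pairs they were 4943 and 3716 at pre-S (3333 and 7891 with TMM factors, 3427 and 7504 with DESeq2 size factors) and 2128 and 3123 between the 33 h groups (13362 and 32228 with coverage). With quantile normalization the split went from 600 and 5422 to 2656 and 2778 at pre-S and from 3946 and 476 to 2444 and 2452 between the 33 h groups in the compartment component, and from 11258 and 16282 to 11342 and 10647 and from 2985 and 1326 to 5831 and 5228 in insulation. Over all alternatives and left-out libraries, the calls from 10 h to imminent division ran from 3811 to 6839 in promoter interactivity (6535 as reported), 2917 to 7436 within 2 Mb (5861), 3032 to 58722 bin pairs (29326), 3196 to 7377 compartment bins (5200) and 15877 to 31806 insulation bins (26802); those to pre-S from 1461 to 6696 (4173), 1664 to 6566 (4941), 756 to 11224 (8659), 3528 to 9347 (6022) and 15285 to 31656 (27540); those between the 33 h groups from 1304 to 5200 (2673), 11 to 4592 (540), 714 to 45590 (5251), 1788 to 7975 (4422) and 333 to 12762 (4311); and those to 10 h from 1 to 170 (54), 1 to 160 (9), 1 to 363 (9), 84 to 6383 (738) and 0 to 4165 (8). Single pairs rest on few reads: the strongest Twistnb pair rested on 56 to 89 read pairs per library.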
